A study of Homo sapiens with 6 samples.

Results

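The mucins and mucin-like surface proteins on a glycogene array were described in HCT116, an established colorectal cancer line with microsatellite instability. Members were taken by symbol: MUC1, MUC2, MUC4, MUC13, MUC15, MUC16, MUC20, OVGP1, PODXL and EMCN. All 10 had a probe set, 12 in all because MUC1 had 3, among 1259 probe sets and 927 named genes on the array. The tested cells received both doxycycline and activin A (+DOX, 3 arrays), and the cells they were set against received activin A alone (-DOX, 3 arrays). The sample titles give both groups as ACVR2 WT, with or without doxycycline, whereas the source labels name TGFBR2, ACVR2 and AIM2 together. The titles were taken to mean wild-type ACVR2, an activin receptor gene, under doxycycline control, which they do not spell out. The comparison asks how these genes read with doxycycline, which is taken to switch the receptor on. No sample received doxycycline without an inducible gene and none lacked activin A, so effects of the drug and of the receptor cannot be told apart. The labels used here give no dose, no hours of induction, no count of clones and no statement that replicates were separate cultures, so the p-values cover the spread between these arrays alone, and that spread may be technical.

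Mucins are glycoproteins whose protein backbone carries long stretches rich in serine, threonine and proline, densely covered with O-linked sugars that begin with N-acetylgalactosamine. Secreted mucins form the gel over the gut, and membrane-bound mucins stand on the apical cell surface, where they form a barrier and some take part in signalling through their tails. In colorectal cancer both the mucins that are made and the sugars they carry are often altered. Podocalyxin (PODXL) and endomucin (EMCN) are sialomucins, surface proteins with a mucin-like outer domain rich in sialic acid.

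Deposited values were log2 expression after RMA, which corrects background, quantile normalizes arrays and summarises each probe set. Array medians lay between 7.61 and 7.65. The ACVR2A probe set was not higher on +DOX arrays, at -0.26 log2 units (SE 0.16; limma, adjusted p = 0.710) and -0.08 without -DOX replicate 3, and whether its probes lie in the introduced sequence is not known, so the arrays are named by label. Replicate 3 of the -DOX arrays stood apart, with correlations of 0.982 to 0.991 with the others against 0.995 to 0.999 among those. Differences of the members are therefore given with and without it. None of 13 listed markers of colon epithelium had a named probe set, so the labelled cell type was not checked by them.

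Across the family the differences were small, and none passed the test. On the log2 scale, +DOX minus -DOX, 10 of 12 probe sets were below 0 (8 of 10 genes), where 54.6% of all probe sets were, although MUC15 turned with median centring and without some arrays. The median over the 10 genes was -0.04 beside -0.01 over the 927 named genes. At an adjusted p under 0.05, 0 of the 12 probe sets passed, and 0.0% of all probe sets did (limma with Benjamini-Hochberg adjustment over 1259 probe sets). The adjusted p of the 12 ran between 0.477 and 0.962. At an unadjusted p under 0.05 there were 4 of 12 (MUC1 with 2, OVGP1 and EMCN), beside 7.78% of all probe sets. With 1 probe set per gene there were 2 of 10 (OVGP1 and EMCN), beside 68 of the 927 named genes. The groups did not overlap for 7 of 12 probe sets, in 5 genes, beside 15.8% of all probe sets. Of these 7, 6 were lower on every +DOX array (8.26% of all) and 1, EMCN, was higher on every one (7.55% of all). MUC1 gave 3 of the 6. With 1 probe set per gene, 4 of the 10 were lower and 1 higher, beside 76 lower and 74 higher among the 927 named genes. Without replicate 3 of the -DOX arrays the 7 probe sets still did not overlap, beside 25.0% of all. These 7 rest partly on narrow gaps: once the arrays were quantile normalized again, 3 of the 12 remained apart, beside 16.0% of all probe sets, namely 1 of MUC1, OVGP1 and EMCN. The members share the 6 arrays and were chosen with earlier results known, so the counts describe these arrays only. In RNA from whole cultures, fewer cells that express a gene and less of its RNA per cell cannot be told apart.

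**Figure D1:**
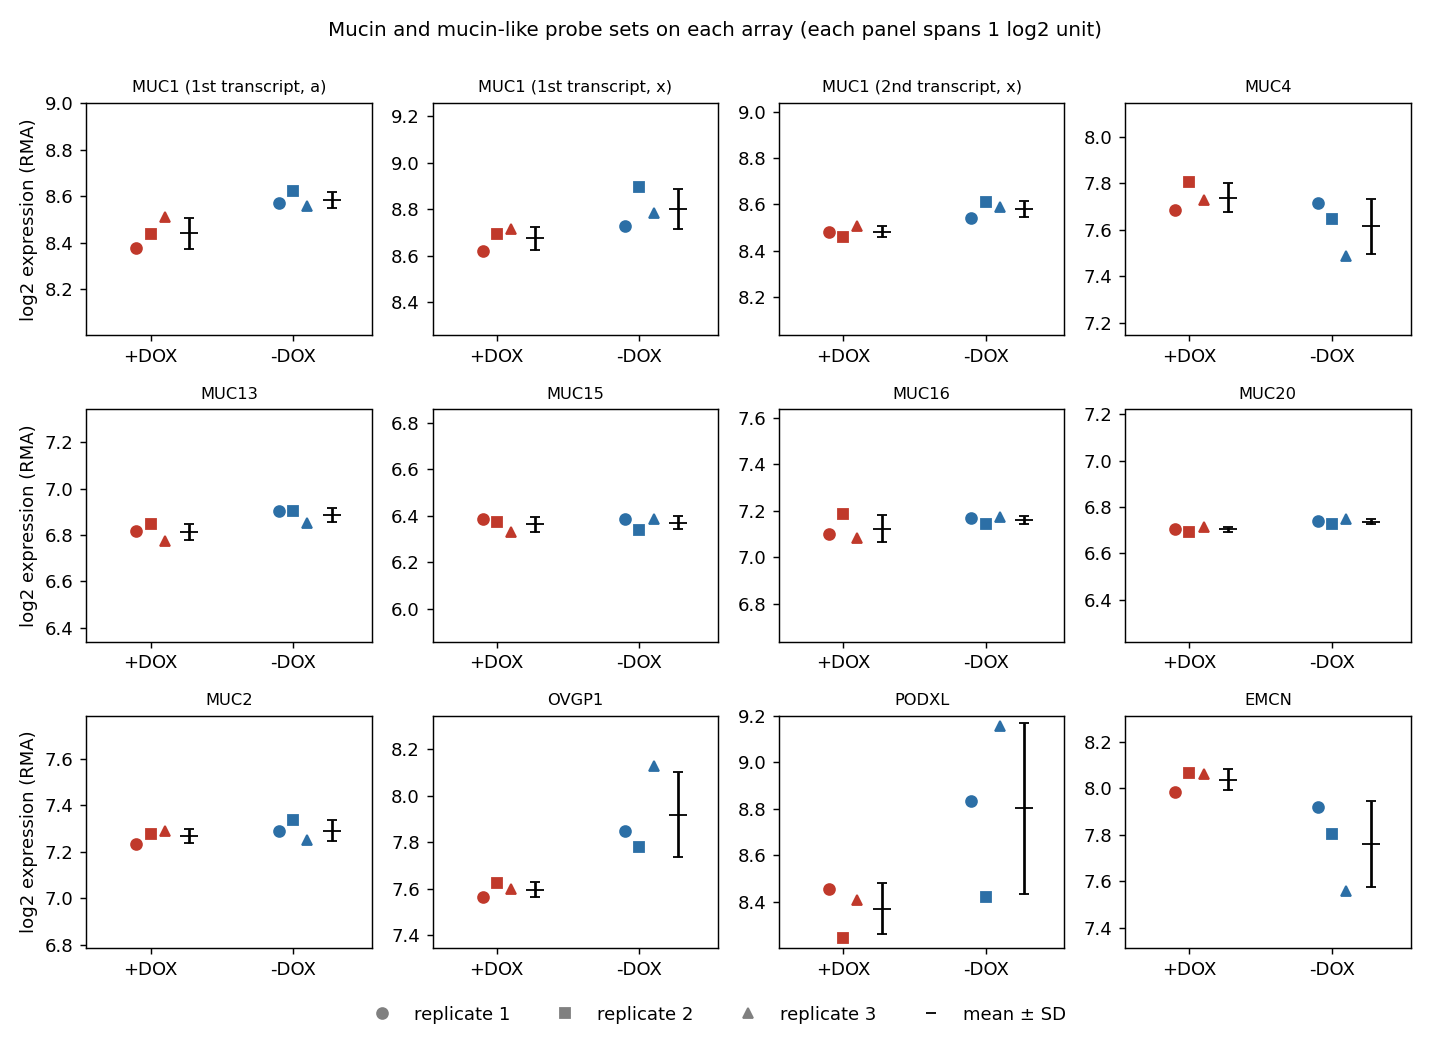
Values of the 12 probe sets on each array in log2 units (vertical axis, each panel spanning 1 unit) for +DOX cells (red, left) and -DOX cells (blue, right), with circles, squares and triangles for replicates 1, 2 and 3 and bars for the mean ± SD. The 3 MUC1 probe sets lie lower on all +DOX arrays, EMCN lies higher, and the widest spread is that of PODXL on the -DOX arrays (SD 0.37).

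**Figure D2:**
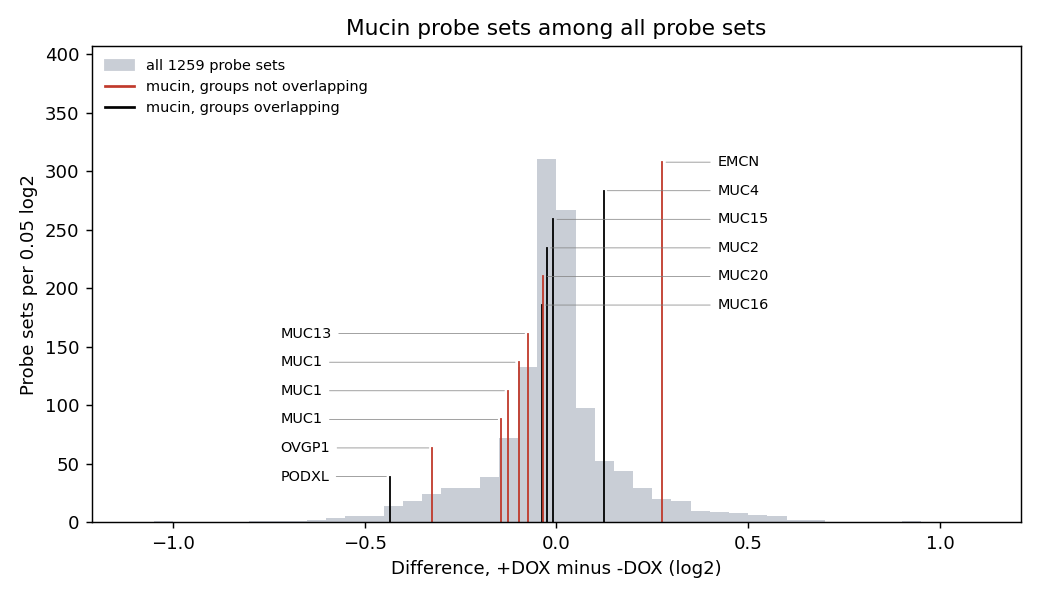
Number of probe sets by difference in log2 units (+DOX minus -DOX, bins of 0.05) for all 1259 probe sets in grey, with the mucin probe sets as lines whose heights only keep the names apart, red where the groups did not overlap and black where they did. PODXL at -0.43 and EMCN at 0.28 are the outermost members.

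The promoters of MUC1 and EMCN are shown because these members read lower and higher, with no overlap, and kept at least 1 probe set apart under renormalization. For MUC1 this was 1 of 3 probe sets after renewed quantile normalization. OVGP1 also stayed apart there, but it had no promoter window and could not be shown. RefSeq windows on GRCh38.p14 were matched by symbol for 6 of the 10 members, and the 250 bases before the start are printed 5′ to 3′ on the minus strand, chr1:155192916-155193165 for MUC1 and chr4:100518023-100518272 for EMCN.
MUC1: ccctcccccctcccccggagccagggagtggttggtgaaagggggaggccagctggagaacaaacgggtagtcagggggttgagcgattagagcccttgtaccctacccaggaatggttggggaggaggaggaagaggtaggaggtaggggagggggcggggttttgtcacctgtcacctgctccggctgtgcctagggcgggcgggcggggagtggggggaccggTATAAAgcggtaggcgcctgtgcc
EMCN: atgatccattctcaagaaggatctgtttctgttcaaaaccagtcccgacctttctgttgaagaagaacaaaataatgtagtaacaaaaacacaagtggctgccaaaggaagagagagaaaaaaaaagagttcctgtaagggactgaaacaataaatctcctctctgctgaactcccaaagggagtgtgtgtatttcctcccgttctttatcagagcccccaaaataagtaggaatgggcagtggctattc
Capitals mark TATAAA, the core of the TATA box, searched on both strands together with CAGAC, a motif bound by SMAD proteins, which carry activin signals to the nucleus. TATAAA lies in the printed MUC1 window, 24 bases before its start, and 30 bases before the start of another MUC1 window. Among the 6 members it was found in MUC1 alone, beside 11.1% of 27305 windows taken once per gene. CAGAC is in neither printed window. It was found in 2 of the 6 members, MUC2 and MUC16, beside 37.8% of all windows. These letters share no bases with each other here, and a match is a description of the sequence, not a binding site.

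MUC1 encodes a membrane-bound mucin of epithelial surfaces with a tandem-repeat outer part and a signalling tail, known clinically as the antigen CA 15-3. Its 3 probe sets were built on 2 transcripts, one with an a-suffix and an x-suffix probe set, the other with an x-suffix one. In the usual Affymetrix naming the letter a marks probes shared by transcripts of 1 gene and x marks probes that may also pair with other sequences. The 3 may share probes and are not independent readings.

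The a-suffix MUC1 probe set read 8.38, 8.44 and 8.51 on +DOX replicates 1, 2 and 3, and 8.57, 8.62 and 8.56 on the -DOX ones. All +DOX arrays were below all -DOX arrays, by 0.05 log2 units at the nearest. Its mean was 8.44 ± 0.07 with doxycycline and 8.58 ± 0.04 without (SD, n = 3 each), a difference of -0.14 (SE 0.05, 95% confidence interval -0.26 to -0.03; limma, adjusted p = 0.501), or 0.905 times on the linear scale. The x-suffix MUC1 probe set of the same transcript read 8.62, 8.69 and 8.71 on +DOX arrays, and 8.73, 8.89 and 8.78 on -DOX arrays. These groups were apart by only 0.01, and the difference was -0.13 (SE 0.06, interval -0.27 to 0.01; limma, adjusted p = 0.673). The probe set of the second MUC1 transcript read 8.48, 8.46 and 8.51 on +DOX arrays, and 8.54, 8.61 and 8.59 on -DOX arrays. Its groups were apart by 0.03, with a difference of -0.10 (SE 0.04, interval -0.19 to -0.01; limma, adjusted p = 0.573) that shrank to -0.05 after renewed quantile normalization. For each of the 3 the exact two-sided permutation p was 0.1, the smallest that 3 arrays against 3 can give.

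Without the array that stood apart the 3 MUC1 probe sets were at -0.16, -0.13 and -0.09. On all 3 the highest value was that of -DOX replicate 2, and without that array the x-suffix probe set of the first transcript was at -0.08, against -0.13 with all arrays. Differences of the 3 probe sets lay within each other's intervals.

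The remaining membrane-bound mucins differed by little. MUC4, a large mucin known to bind the receptor ERBB2, had a positive difference. It read 7.68, 7.80 and 7.73 on +DOX arrays, and 7.72, 7.64 and 7.49 on -DOX arrays. The groups overlapped through replicate 1 of each, and the difference of 0.12 (SE 0.07, interval -0.05 to 0.30; limma, adjusted p = 0.692) was 0.06 without -DOX replicate 3, which had the lowest value. MUC20, a small mucin known to bind the receptor MET, lies next to MUC4 on chromosome 3. It read 6.71, 6.69 and 6.71 with doxycycline, and 6.74, 6.73 and 6.75 without. Its groups did not overlap, although they were apart by 0.011 at the nearest and the difference was -0.03 (SE 0.03; limma, adjusted p = 0.730). The neighbours MUC4 and MUC20 thus had differences of opposite sign, neither past the threshold. With arrays centred on their medians, the MUC20 groups overlapped and those of MUC4 did not, where 16.8% of all probe sets did not overlap.

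MUC13, a membrane mucin of the gut lining, read 6.82, 6.85 and 6.78 on +DOX arrays, and 6.90, 6.91 and 6.85 on -DOX arrays. The groups were apart by 0.0054, and the difference was -0.07 (SE 0.04, interval -0.17 to 0.02; limma, adjusted p = 0.682). MUC13, MUC15 and MUC20 had means under 6.88, the lower quartile of all probe set means. The share of background is unknown for them and for the other members. MUC16, the carrier of the CA125 antigen and a ligand of mesothelin, read 7.10, 7.19 and 7.08 with doxycycline, and 7.17, 7.14 and 7.17 without. Replicate 2 with doxycycline was the highest of the 6, so the groups overlapped, and the difference of -0.04 had an interval of -0.14 to 0.06. MUC15, a membrane mucin first found in milk fat globules of cattle, read 6.39, 6.38 and 6.33 on +DOX arrays, against 6.39, 6.34 and 6.39 on -DOX arrays. Its difference was -0.0077 (interval -0.10 to 0.08), and it turned to 0.012 when the arrays were centred on their medians. Without -DOX replicate 3, MUC13 was at -0.09, MUC16 at -0.03, MUC20 at -0.03 and MUC15 at 8.5e-05.

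Both secreted members were measured. MUC2 is the gel-forming mucin that goblet cells of the colon release. It read 7.23, 7.28 and 7.29 on +DOX arrays, and 7.29, 7.34 and 7.25 on -DOX arrays. The groups overlapped, and the difference was -0.02 (SE 0.04, interval -0.12 to 0.07; limma, adjusted p = 0.835), or -0.05 without -DOX replicate 3. It was -0.0017 without -DOX replicate 2, -0.0034 after renewed quantile normalization and -0.0048 after median centring. OVGP1, an oviduct glycoprotein with a chitinase-like part, had the smallest p of the 10 genes. It read 7.56, 7.63 and 7.60 on +DOX arrays, and 7.85, 7.78 and 8.13 on -DOX arrays. Every +DOX array was below every -DOX array, by 0.16 at the nearest, the widest gap among the 12 probe sets. Means were 7.60 ± 0.03 with doxycycline and 7.92 ± 0.18 without (SD, n = 3 each), a difference of -0.32 (SE 0.10, interval -0.56 to -0.09; limma, unadjusted p = 0.0163, adjusted p = 0.477). The OVGP1 difference was -0.22 without -DOX replicate 3, its highest array (limma, adjusted p = 0.173), and the groups stayed apart.

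PODXL, an anti-adhesive sialomucin of kidney podocytes that many carcinomas also make, had the largest difference of the 12 and the widest spread. It read 8.46, 8.25 and 8.41 on +DOX arrays, and 8.83, 8.42 and 9.16 on -DOX arrays. Replicate 2 without doxycycline lay among the +DOX values, so the groups overlapped. Means were 8.37 ± 0.11 with doxycycline and 8.80 ± 0.37 without (SD, n = 3 each), and the difference of -0.43 (SE 0.19, interval -0.91 to 0.04; limma, adjusted p = 0.669) equals 0.740 times on the linear scale. Without -DOX replicate 3 the PODXL difference was -0.26, and without -DOX replicate 2 it was -0.62. In that last setting the PODXL groups no longer overlapped, but neither did those of 41.4% of all probe sets.

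EMCN, a sialomucin best known from the endothelium of small vessels, was the member with higher values on all +DOX arrays. It read 7.98, 8.07 and 8.06 with doxycycline, and 7.92, 7.80 and 7.56 without. The groups were apart by 0.06. Means were 8.04 ± 0.05 with doxycycline and 7.76 ± 0.18 without (SD, n = 3 each), a difference of 0.28 (SE 0.10, interval 0.03 to 0.52; limma, adjusted p = 0.562), or 1.21 times. Without -DOX replicate 3, the lowest array, the EMCN difference was 0.18 and the groups stayed apart. Of 9 listed endothelial markers 4 were measured, PECAM1, CD34, VCAM1 and SELE, with differences of -0.09, -0.06, 0.05 and -0.02 and overlapping groups in each. Their median level per array ran between 6.68 and 6.74 on +DOX arrays and between 6.67 and 6.76 on -DOX arrays, and their part in the EMCN reading was not tested. Of listed blood cell markers 4 were measured, with a median of 0.02, and of fibroblast markers 5, with a median of -0.01, and 0 of either passed. Among the fibroblast markers VCAN was at -0.55 with overlapping groups, and at -0.07 without -DOX replicate 3. The other fibroblast markers lay between -0.02 and 0.01 with all arrays.

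**Figure D3:**
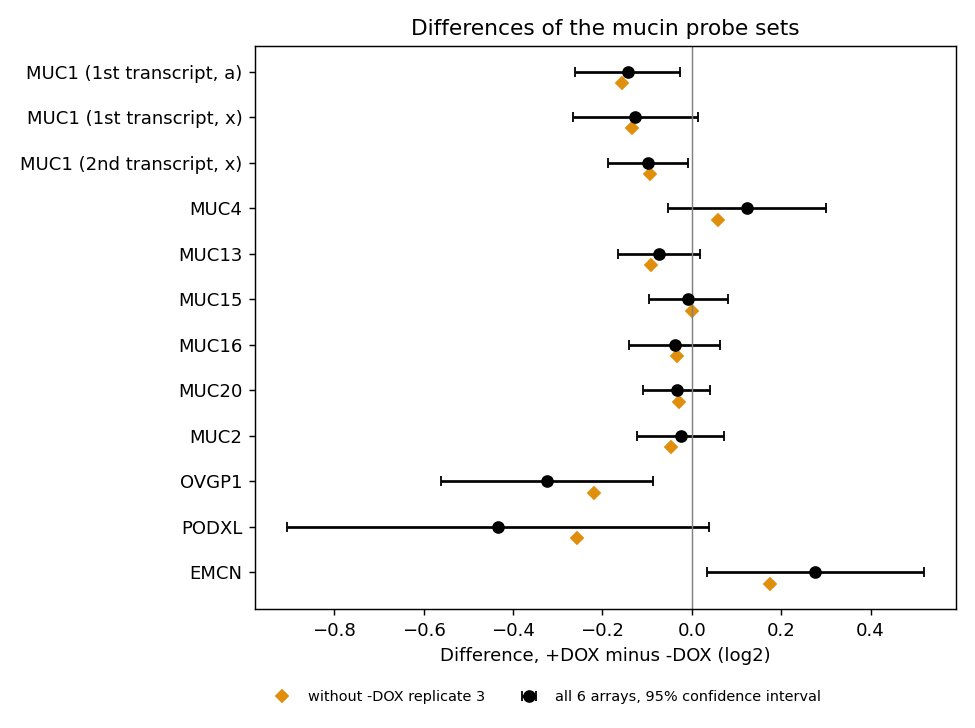
Difference of each mucin probe set in log2 units (+DOX minus -DOX, horizontal axis) with its 95% confidence interval from limma over all 6 arrays (black), and the value without -DOX replicate 3 (orange diamonds). The intervals of 8 of the 12 include 0, and PODXL, OVGP1 and EMCN move the furthest towards 0 without that array.

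The spread between replicates was larger among the -DOX arrays over the array as a whole, with the larger SD there for 77.1% of all probe sets and for 8 of the 12 mucin probe sets. For OVGP1 the -DOX SD was 5.76 times as large, for EMCN 4.04 times and for PODXL 3.35 times. In MUC16 it was the other way, with an SD of 0.056 on +DOX arrays and 0.016 on -DOX arrays. PODXL, OVGP1 and MUC20 had their highest value on -DOX replicate 3, and EMCN and MUC4 their lowest. MUC2, MUC13 and all 3 MUC1 probe sets were highest on -DOX replicate 2 instead.

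Genes with the pattern most like PODXL and MUC1 were taken by the root-mean-square distance between values centred on each gene's mean over the 6 arrays. For PODXL, 926 other genes were compared, and SLC35B4, KITLG and TGFBR2 came nearest, at 0.049, 0.055 and 0.061 log2 units. The distance of PODXL from a flat line was 0.310, and 405 genes were nearer to it than that. TGFBR2, the type II TGF-beta receptor, read 9.37, 9.21 and 9.38 on +DOX arrays, and 9.76, 9.21 and 10.04 on -DOX arrays. Like PODXL it was highest on -DOX replicate 3 and next on -DOX replicate 1, while -DOX replicate 2 lay level with the lowest +DOX value. For MUC1, represented by its x-suffix probe set with the highest mean, IHH and BGN were among the 3 nearest, at 0.031 and 0.036 log2 units. MUC1 lay 0.085 from a flat line, and 209 genes were nearer to it than that. These distances rest on 6 arrays. The PODXL pattern holds both its group difference of -0.43 and the spread among the 3 -DOX arrays (SD 0.37).

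**Figure D4:**
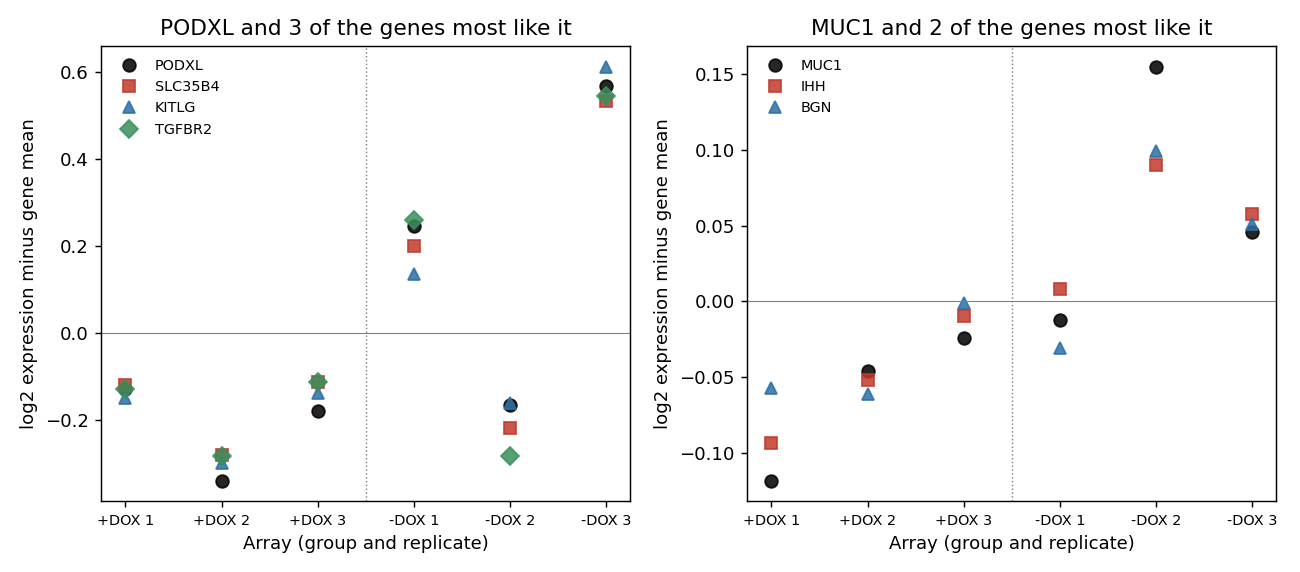
Values minus each gene's mean in log2 units for PODXL (left, with SLC35B4, KITLG and TGFBR2) and MUC1 (right, with IHH and BGN), on the 3 +DOX arrays left of the dotted line and the 3 -DOX arrays right of it. The PODXL set is highest on -DOX replicate 3, and the MUC1 set is highest on -DOX replicate 2.

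Other mucin-type proteins showed no common direction. Of 12 measured, 6 had positive and 6 negative differences, with a median of -0.00081 (-0.0050 without -DOX replicate 3), and 0 passed the test. CX3CL1, a membrane-bound chemokine on a mucin stalk, was at -0.07 (SE 0.04) with the groups apart, and at -0.09 without that array. The membrane mucin MUC17 was at 0.05, the sialomucin CD34 at -0.06 and PODXL2, also called endoglycan, at 0.07, all with overlapping groups. Without that array they were at 0.03, -0.05 and 0.04. MUC17 was dim, with means of 6.86 on +DOX arrays and 6.80 on -DOX arrays, under the lower quartile of 6.88.

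The enzymes that build the O-linked sugars of mucins also had values in both directions. Of 33 measured, 14 had positive and 19 negative differences, with a median of -0.02 beside -0.01 over all named genes, and 0 passed. Without -DOX replicate 3 the order of these medians turned, at -0.0049 for the enzymes and -0.02 for all named genes. The groups did not overlap for 6 of the 33, 4 higher and 2 lower, a share near the 15.8% of all probe sets. C1GALT1C1 (Cosmc), which helps the core 1 galactosyltransferase to fold, read 7.80, 7.79 and 7.80 on +DOX arrays, and 7.59, 7.65 and 7.39 on -DOX arrays. This was a difference of 0.25 (SE 0.07; limma, adjusted p = 0.477), and 0.18 without -DOX replicate 3. ST6GALNAC2, which adds sialic acid to the first GalNAc of the chain, was at 0.28 (SE 0.09; limma, adjusted p = 0.478). ST3GAL1, which caps core 1 with sialic acid, was at -0.19 (SE 0.06), and GALNT13, a GalNAc-transferase that begins chains, at -0.14 (SE 0.04). GALNT13 was dim, with means of 6.77 on +DOX arrays and 6.91 on -DOX arrays, around the lower quartile of 6.88. Without -DOX replicate 3 ST6GALNAC2, ST3GAL1 and GALNT13 were at 0.20, -0.13 and -0.15.

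Of 18 partners of the mucins 14 had negative and 4 positive differences, beside 512 negative among the 927 named genes. Their median was -0.03 beside -0.01 over all named genes (-0.04 beside -0.02 without -DOX replicate 3), and 0 passed the test. MST1R, a receptor tyrosine kinase of the MET family, was at -0.32 (SE 0.05; limma, adjusted p = 0.244), and again at -0.32 without -DOX replicate 3. LGALS3, a galectin that binds MUC1, read 12.28, 12.36 and 12.29 with doxycycline, and 11.92, 11.97 and 10.99 without. It was higher on every +DOX array, at 0.68 (SE 0.27; limma, adjusted p = 0.627), and at 0.36 without -DOX replicate 3. CD44, an adhesion receptor, was at -0.39 (SE 0.25) with overlapping groups, which was -0.11 without that array.

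**Figure D5:**
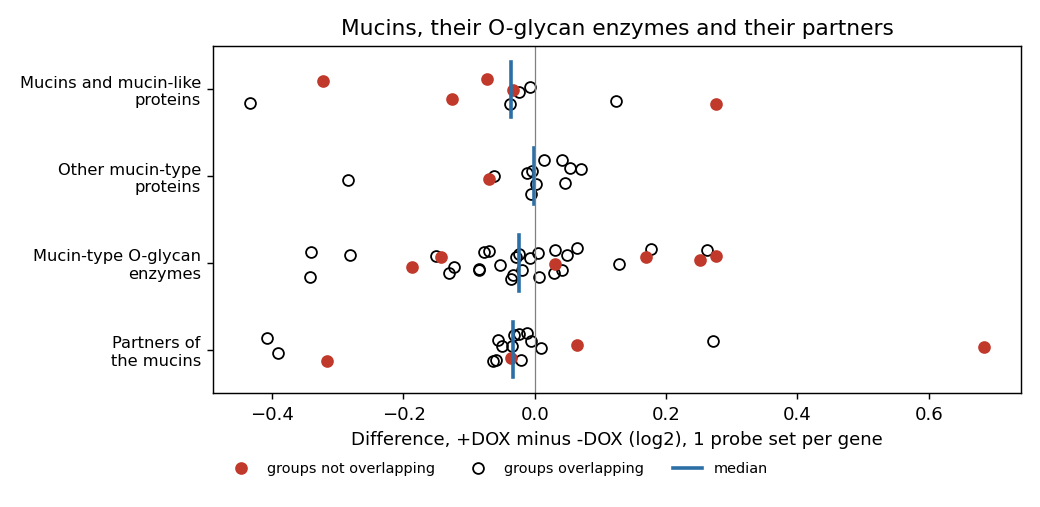
Differences in log2 units (+DOX minus -DOX) of 10 mucin members, 12 other mucin-type proteins, 33 mucin-type O-glycan enzymes and 18 partners, 1 probe set per gene, filled where the groups did not overlap and open where they did. Blue bars mark the medians, from -0.04 to -0.00081, and vertical scatter only separates points.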

How the data were processed

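RNA of 6 HCT116 samples was turned into biotin-labelled cRNA and hybridised to 1-colour arrays, per the labels' protocols. The authors deposited log2 values from RMA (version not given), per the submitters' processing notes. The table names no build or detection calls. Probe sets were named by unversioned RefSeq accession through RefSeq genes of GRCh38.p14: 1043 of 1259 (82.8%) had 1 symbol, 190 no accession and 26 one outside the table. The test was limma 3.58.1 under R 4.3.3 (lmFit, eBayes, two-sided), adjusted over 1259 probe sets at 0.05, without filter or block. It was checked on simulated arrays with Gaussian noise of equal spread in both groups and no array standing apart. The check therefore does not cover the larger -DOX spread or the -DOX replicate that stood apart. For lists, the probe set with the highest mean stands for its gene.

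The members and lists were chosen with earlier results of these data known. All members are named with every probe set, up to 4 genes per list by smallest p, and the 3 genes nearest to MUC1 and PODXL; 2 genes that these rules take are not reported here. Replicate numbers are shared by the groups, but deviations of same-numbered arrays correlated at -0.15, -0.04 and -0.16, so they were not treated as pairs. Alternatives were median centring, renewed quantile normalization, an intensity trend, array weights, a filter on dim probe sets, a replicate block, the mean of a gene's probe sets and leaving out each array. Precision is limited by the number of arrays, the half-width of the 95% interval of a difference being 0.152 log2 units in the median.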

Additional observations from a re-analysis of the deposited data

How the results depend on the processing

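Under each alternative that refitted the test, 0 member probe sets passed an adjusted p of 0.05. Over all probe sets the count was 1 with array weights, whose estimate stopped short of its convergence tolerance, and 0 under the others. The replicate block, used although the numbers show no pairing, gave 0 member probe sets and a median of -0.04. The median over members stayed between -0.05 and -0.03 as arrays were left out, and was -0.02 after median centring. MUC15 was at 0.012 after median centring and between -0.024 and 0.0098 as arrays were left out; no other member changed sign. The count of non-overlapping member probe sets and its alternatives were chosen after seeing the data. It was 6 after median centring, beside 16.8% of all probe sets, and 3 after renewed quantile normalization, beside 16.0%. As arrays were left out the count lay between 7 and 9, beside 21.4% to 41.4% of all probe sets. The cause was not tested. MUC4 was at 0.03 and EMCN at 0.14 with array weights. OVGP1 had its smallest adjusted p, 0.0699 (limma), with array weights. Without detection calls, how far any member lies above background is unknown, MUC13, MUC15 and MUC20 being the dimmest. The 4 measured blood cell markers had medians per array between 7.18 and 7.21. CD33, the highest of them, read 7.77 on +DOX arrays and 7.74 on -DOX arrays in the mean. Over the 6 arrays MUC16, MUC2, MUC4, OVGP1 and EMCN had means of 7.14, 7.28, 7.68, 7.76 and 7.90.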
